A study of Mus musculus with 352 samples.

Results

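The SLC25 family is the large set of mitochondrial carrier proteins, encoded in mouse by the Slc25a genes. Members were all rows of the deposited gene table whose Ensembl identifier carried a symbol beginning with Slc25a in the GENCODE M21 annotation of GRCm38. There were 38 such rows among the 14413 genes of the table, out of 48 Slc25a symbols in the annotation. Of these, 33 passed the expression minimum used for testing, a geometric mean of at least 1 FPKM over all libraries (FPKM is a level scaled for exon length and library depth), as did 9862 genes in all. Members were chosen by symbol and not by a measured difference, though earlier results of these data were known.

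Most of these carriers sit in the inner mitochondrial membrane and exchange a solute of the matrix for one of the intermembrane space. In muscle the best known members pass ATP out to the contractile machinery in exchange for ADP, bring in phosphate, shuttle reducing equivalents as malate and aspartate, and admit acylcarnitines for fatty acid oxidation. Others carry iron, nucleotides, cofactors or amino acids, and a few lie in the peroxisomal or the outer mitochondrial membrane. BMAL1, encoded by Bmal1 (also named Arntl), is the transcription factor that with CLOCK or NPAS2 drives the circadian clock of nearly every cell, by binding the E-box sequence CACGTG.

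RNA was sequenced from whole tibialis anterior muscle, a fast muscle of the lower hind leg, of 352 C57BL/6 mice of both sexes in 15 groups of 22 to 25. Muscle was taken every 4 h at 6 points of the day, with 3 to 5 mice of a group at each, and times are given as zeitgeber time (ZT), counted in hours from lights on. Bmal1 knockout mice (KO) carried Bmal1(stopFL/stopFL), an allele blocked by a removable stop cassette, with no Cre. Muscle-restored mice (Mu-RE) carried the same alleles with Hsa-Cre(-/tg), driven in muscle fibres by the skeletal actin promoter. Mice restored in brain and muscle (RE-RE) carried Syt10-Cre(-/tg) and Hsa-Cre(-/tg), and brain-restored mice (Br-RE) carried Syt10-Cre(-/tg) without Hsa-Cre. Syt10-Cre is active in the suprachiasmatic nucleus, the master clock of the brain. Wild-type mice (WT) carried neither alteration. Under ad libitum feeding (ALF), 10 to 12 weeks of age, there were 23 KO, 25 Mu-RE, 24 RE-RE, 23 Br-RE and 23 WT mice. At 26 weeks there were 24 KO, 24 Mu-RE, 24 RE-RE, 22 Br-RE and 22 WT mice. Under time-restricted feeding (TRF) at 26 weeks there were 23 KO, 23 Mu-RE and 24 WT mice. Old wild-type mice of 85 to 116 weeks numbered 24 on TRF and 24 on ALF. The sources used here do not state the hours of food access. Restoration by Hsa-Cre and Syt10-Cre reaches only the cells in which those promoters are active, so the other cells of the muscle keep the blocked allele.

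The depth inferred from the spacing of low values ran from 14760000 to 47820000 reads per library, with a median of 22590000. Summed over the gene, Bmal1 lay at 8.14, 10.6 and 13.8 FPKM (lowest, median, highest) in 10-week KO mice, against 1.72, 7.45 and 35.4 FPKM in 10-week WT mice. A whole-gene value does not show the stop cassette, so it checks no label. The lowest correlation of a library with its group's median was 0.927, in mouse 11 of the 26-week KO group, and 6 libraries lay under 0.95. Summed FPKM of the muscle genes Ckm, Acta1 and Mb was at least 16654 in every mouse. The deposited values carry a centring by the authors that sets females equal to males and makes the average of RE-RE and Br-RE muscle at an age equal to that of the other groups of that age. Levels are therefore compared here only within RE-RE and Br-RE or among the other groups, and sexes are not compared. In whole muscle, fewer cells of a type and less RNA per cell cannot be told apart.

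Levels within the family ran over several orders of magnitude. Slc25a4, the ADP/ATP carrier of heart and skeletal muscle (ENSMUSG00000031633, chr8:46206797-46211284, minus strand), averaged 1678 FPKM over all libraries and held 73.0% of the summed FPKM of the 38 members. Its medians in the RE-RE and Br-RE groups lay between 1415 FPKM in 10-week RE-RE mice and 1708 FPKM in 26-week Br-RE mice. Among the other groups they lay between 1476 FPKM in 26-week KO mice on ALF and 1928 FPKM in Mu-RE mice on TRF. The oxoglutarate/malate carrier Slc25a11 averaged 164 FPKM, the phosphate carrier Slc25a3 161 FPKM and the calcium-regulated aspartate/glutamate carrier Slc25a12 79.5 FPKM. Slc25a5, the more widely expressed ADP/ATP carrier, came next at 20.9 FPKM. It has near-identical copies elsewhere in the genome that can share its reads, so its values are uncertain. These 5 carriers supply the ATP export, phosphate import and malate/aspartate shuttling of a contracting muscle.

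Between 10 and 18 FPKM on average stood the iron carrier Slc25a28 (17.5 FPKM), the glutathione carrier Slc25a39 (15.6 FPKM) and the carnitine/acylcarnitine carrier Slc25a20 (15.4 FPKM). The NAD carrier Slc25a51 (13.3 FPKM), the outer-membrane protein Slc25a46 (12.8 FPKM) and the S-adenosylmethionine carrier Slc25a26 (10.6 FPKM) were in the same range. The lowest tested members were the citrate carrier Slc25a1 (1.24 FPKM) and the dicarboxylate carrier Slc25a10 (1.21 FPKM). Below the minimum, and reported by level alone, were Slc25a24 (0.863 FPKM), Slc25a14 (0.729 FPKM), Slc25a40 (0.638 FPKM), Slc25a45 (0.560 FPKM) and Slc25a18 (0.181 FPKM).

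**Figure D1:**
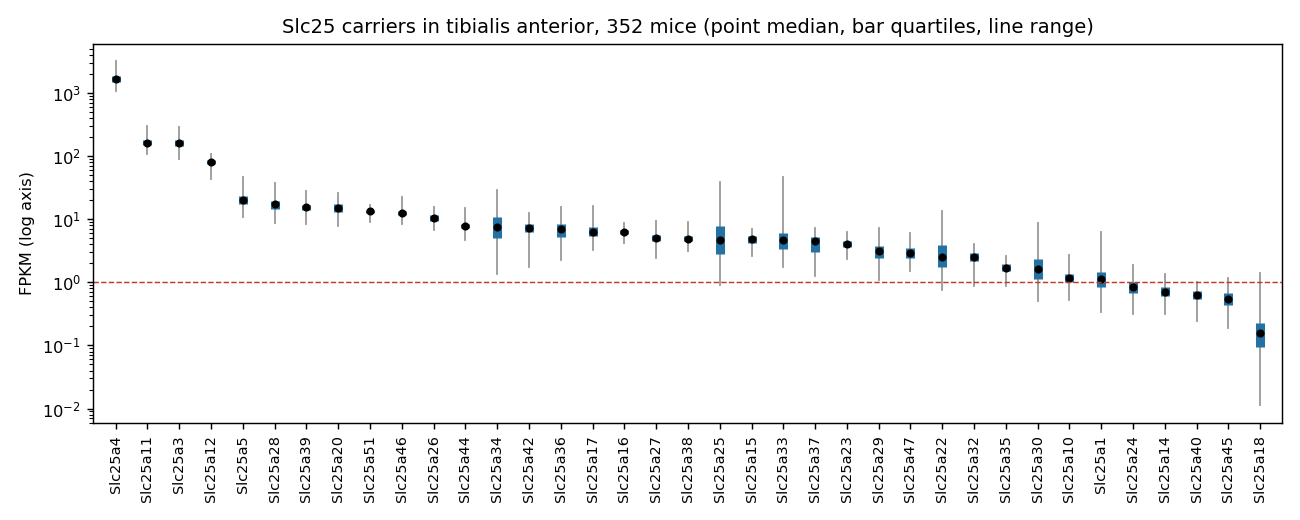
Level of 37 Slc25a members over all 352 libraries, as FPKM on a log axis, with the median, quartiles and full range of each. Slc25a4 stands alone at the top at 1678 FPKM on average, and the 5 members under the dashed line at 1 FPKM were not tested.

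Members also differed in how steady they were among mice of 1 group and time. The SD on the log2 scale was 0.11 for Slc25a51 and 0.17 for Slc25a12, against a median of 0.24 over all genes past the minimum. It reached 0.76 for the ATP-Mg/phosphate carrier Slc25a25, 0.68 for the orphan carrier Slc25a34 and 0.64 for the glutamate carrier Slc25a22. These 3 therefore need the largest differences to pass a test.

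The first comparison asks which carriers depend on BMAL1 in young muscle. In 10-week KO muscle 17 of the 33 carriers differed from WT muscle at an adjusted p below 0.05, 8 higher and 9 lower. The call rate over all genes was 41.8% (20.3% higher and 21.6% lower), and the carriers' share lies near it. Their median difference was 0.03 on the log2 scale, against -0.00 over all genes. The most highly expressed members moved little. The largest called differences were in Slc25a30 of the uncoupling-protein branch, the pyrimidine nucleotide carrier Slc25a33 and the iron carrier Slc25a37. The orphan carrier Slc25a34 came next. Differences are KO minus WT in the 24 h mean on the log2 scale, with the standard error (SE), from limma with Benjamini-Hochberg adjustment over all 9862 genes.

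Slc25a37, or mitoferrin, imports iron for haem and iron-sulphur clusters. It had 2.07, 2.74 and 3.47 FPKM (lowest, median, highest) in KO mice, against 3.59, 4.47 and 6.40 FPKM in WT mice. Every KO mouse lay below every WT mouse. The difference was -0.75 (SE 0.06, adjusted p = 9.31e-14). It was the 1 tested carrier whose groups did not overlap, as held for 1.10% of all genes. The second mitoferrin, Slc25a28, which is more widely expressed, fell by 0.25 (SE 0.05, adjusted p = 0.000121), with 9.79, 13.3 and 19.9 FPKM in KO mice and 13.8, 16.2 and 21.3 FPKM in WT mice.

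Slc25a33 and Slc25a36 both carry pyrimidine nucleotides into mitochondria, and they moved in opposite directions. Slc25a33 had 1.84, 2.66 and 4.55 FPKM in KO mice, against 3.52, 5.56 and 12.8 FPKM in WT mice, a difference of -1.11 (SE 0.11, adjusted p = 4.7e-11). Slc25a36 had 7.05, 8.23 and 13.5 FPKM in KO mice, against 3.0, 6.94 and 8.76 FPKM in WT mice, a difference of 0.54 (SE 0.07, adjusted p = 2.3e-08). The groups overlapped at the margin in Slc25a33, and in Slc25a36 the lowest KO mouse lay above the WT median. The sources used here do not state whether counting used strand. The gene spans of Slc25a36 and of Gm16185, on the other strand, overlap by 3285 bases, so reads from that stretch could belong to either gene. The same holds for the 1090 bases shared by the spans of Slc25a33 and Gm13068. It holds too for 4540 bases that Slc25a37 shares with Gm20236 on the same strand. Slc25a37 also shares 2892 bases with Gm27222 on the other strand. Spans of further members overlap other genes, among them Slc25a11, which shares 245 bases with Rnf167. Overlap of exons was not counted.

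Slc25a30, the kidney mitochondrial carrier protein related to the uncoupling proteins, showed the largest difference of the family. It had 0.601, 1.09 and 1.59 FPKM in KO mice, against 1.28, 2.20 and 8.60 FPKM in WT mice. The difference was -1.20 (SE 0.12, adjusted p = 6.19e-11), and the highest KO mice overlapped the lowest WT mice. Slc25a27, a brain-enriched carrier of the same branch, went the other way by 0.22 (SE 0.06, adjusted p = 0.00159).

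The acylcarnitine carrier and 2 carriers of amino acids were lower in KO muscle. Slc25a20, which passes acylcarnitines inward for oxidation, had 7.86, 11.9 and 17 FPKM in KO mice and 10.2, 16.0 and 21.6 FPKM in WT mice, a difference of -0.33 (SE 0.08, adjusted p = 0.00141). Slc25a15, the ornithine carrier of the urea cycle in liver, had 3.40, 4.08 and 5.10 FPKM in KO mice and 3.65, 5.10 and 6.62 FPKM in WT mice, a difference of -0.32 (SE 0.06, adjusted p = 3.83e-05). Slc25a29, a carrier of basic amino acids, differed by -0.34 (SE 0.11, adjusted p = 0.0108). The groups overlapped in all 3. Of the 7 amino acid carriers tested 0 rose and 2 fell, where 21.6% of all genes fell.

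Cofactor carriers moved both ways. Slc25a17, a peroxisomal carrier of coenzyme A and related nucleotides, had 5.93, 8.45 and 12.8 FPKM in KO mice and 3.93, 6.35 and 10.3 FPKM in WT mice, a difference of 0.44 (SE 0.08, adjusted p = 1.63e-05). Slc25a42, a mitochondrial coenzyme A carrier, differed by 0.32 (SE 0.07, adjusted p = 9.41e-05). Slc25a32, linked to folate and FAD, went the other way at -0.26 (SE 0.07, adjusted p = 0.00293). Over the whole nucleotide and cofactor group, 4 of 11 rose and 3 fell, where 20.3% of all genes rose and 21.6% fell. The groups overlapped in each of these carriers.

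Of the 3 carboxylate carriers tested, 2 rose, where 20.3% of all genes did. Slc25a1, which exports citrate for lipid synthesis, had 0.613, 1.15 and 2.83 FPKM in KO mice and 0.424, 0.834 and 1.30 FPKM in WT mice, a difference of 0.46 (SE 0.13, adjusted p = 0.00445). Slc25a11 differed by 0.12 (SE 0.04, adjusted p = 0.0178). Slc25a34, an orphan carrier, had 2.06, 10.4 and 24.7 FPKM in KO mice and 2.48, 6.60 and 14.7 FPKM in WT mice. Its difference was 0.64 (SE 0.21, adjusted p = 0.0104), with a wide overlap.

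Among the 5 most abundant members, Slc25a5 fell by 0.32 (SE 0.11, adjusted p = 0.0128) and Slc25a11 rose as given above. Slc25a4 had 1179, 1647 and 2258 FPKM in KO mice and 1142, 1527 and 2092 FPKM in WT mice, a difference of 0.11 (SE 0.08) that did not pass at adjusted p = 0.28. Slc25a3 and Slc25a12 differed by 0.02 (SE 0.06) and 0.04 (SE 0.05).

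Promoters are shown for 4 of the carriers that differed between KO and WT muscle at both ages. Of those shown, 3 hold the BMAL1-type E-box near their start, and Slc25a30, which changed most, holds none in its window. Each window is 300 bases around a RefSeq transcript start on GRCm38.p6, given 5′ to 3′ on the gene's own strand, with the E-box CACGTG in capitals where a script found it. Slc25a33 lies at chr4:149774218-149774517, Slc25a15 at chr8:22398228-22398527, Slc25a36 at chr9:97110992-97111291 and Slc25a30 at chr14:75786988-75787287, all on the minus strand.
Slc25a33: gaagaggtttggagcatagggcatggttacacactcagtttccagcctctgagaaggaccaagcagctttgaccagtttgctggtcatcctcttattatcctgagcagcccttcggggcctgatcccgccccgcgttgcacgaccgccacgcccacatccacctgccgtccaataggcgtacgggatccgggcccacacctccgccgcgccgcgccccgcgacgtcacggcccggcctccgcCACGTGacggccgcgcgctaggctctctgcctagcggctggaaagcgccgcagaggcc
Slc25a15: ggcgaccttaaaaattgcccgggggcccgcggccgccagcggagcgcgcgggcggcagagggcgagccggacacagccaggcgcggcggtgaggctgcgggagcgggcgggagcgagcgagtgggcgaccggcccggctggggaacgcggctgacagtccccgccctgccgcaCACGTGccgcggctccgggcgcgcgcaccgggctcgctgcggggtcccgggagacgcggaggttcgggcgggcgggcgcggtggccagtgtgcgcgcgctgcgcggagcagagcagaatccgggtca
Slc25a36: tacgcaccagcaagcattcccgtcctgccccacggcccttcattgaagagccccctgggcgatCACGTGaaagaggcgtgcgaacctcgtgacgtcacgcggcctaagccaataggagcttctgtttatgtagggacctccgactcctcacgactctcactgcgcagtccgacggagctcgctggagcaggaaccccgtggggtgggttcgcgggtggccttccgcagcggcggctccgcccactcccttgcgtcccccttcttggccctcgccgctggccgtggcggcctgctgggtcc
Slc25a30: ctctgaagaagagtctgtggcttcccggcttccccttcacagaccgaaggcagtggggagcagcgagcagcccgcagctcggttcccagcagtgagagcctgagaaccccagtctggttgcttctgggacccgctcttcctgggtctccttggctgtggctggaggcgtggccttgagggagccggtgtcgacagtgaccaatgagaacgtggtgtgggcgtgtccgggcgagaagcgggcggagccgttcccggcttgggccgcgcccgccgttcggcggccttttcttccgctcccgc

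The E-box begins at -8 relative to the start in Slc25a33, at -77 in Slc25a15 and at -187 in Slc25a36. In Slc25a1, which was also higher in KO muscle at both ages and is not shown, it begins at -239. A second RefSeq start of Slc25a15, with its window at chr8:22398572-22398871, holds no E-box. RefSeq promoters matched 24 of the 33 tested members with 30 windows in all, and 4 of the 30 windows held the E-box, the fourth being that of Slc25a1. Among all 32851 promoter windows of the table, 7.15% held it. CACGTG reads the same on both strands. The D-box sequences TTATGTAA and TTACGTAA (1.06% of promoters) and TAGGTCA, a motif read by nuclear receptors such as REV-ERB (2.61% of promoters), were searched on both strands and were in no member's window. A match is a stretch of letters, not evidence of binding. Slc25a33 and Slc25a15 were lower in KO muscle while Slc25a36 and Slc25a1 were higher.

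**Figure D2:**
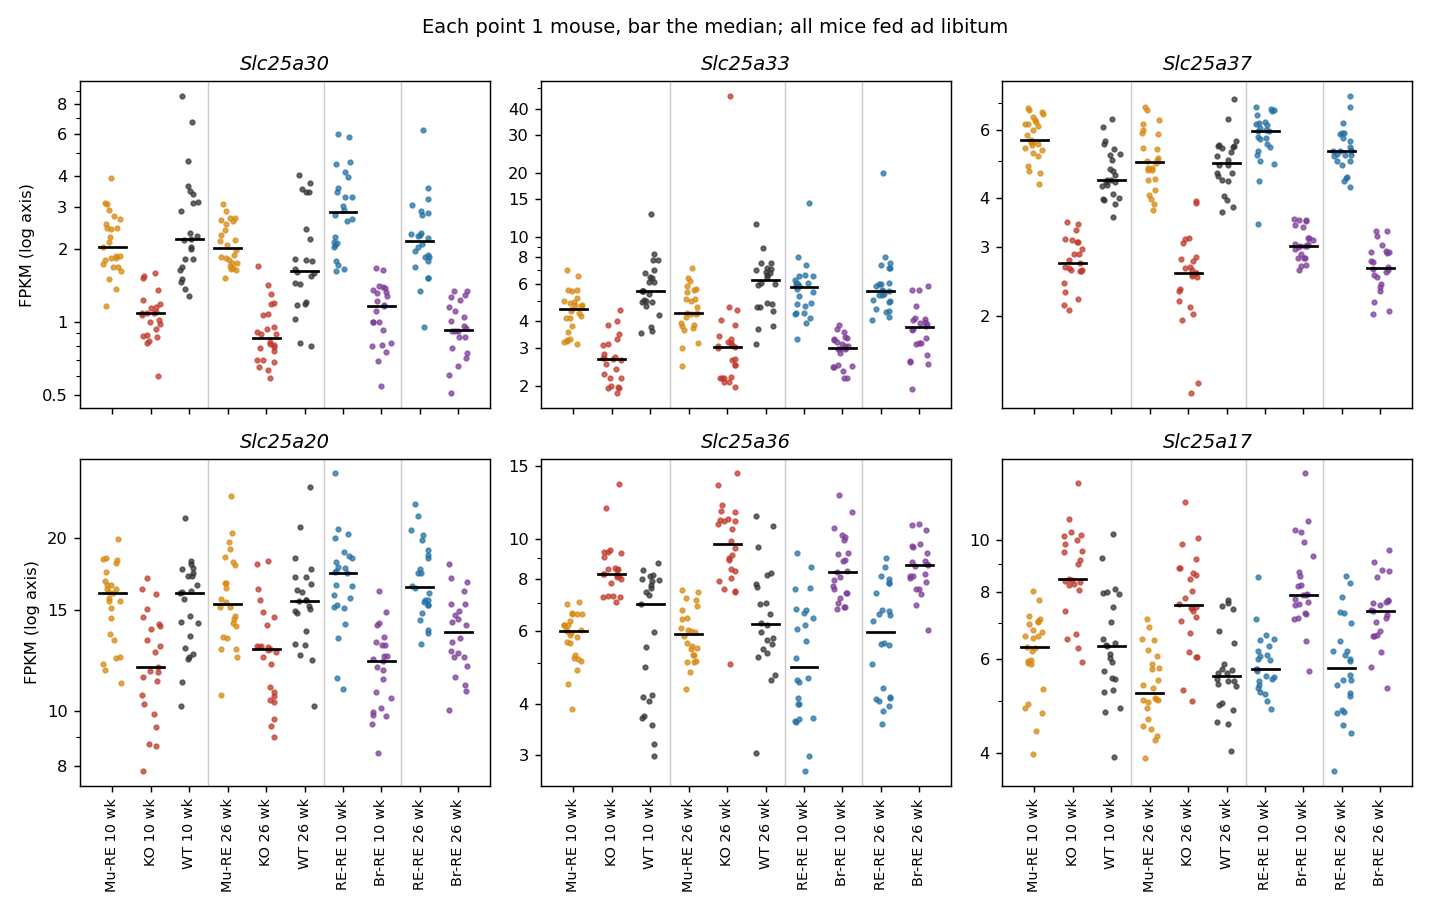
FPKM of 6 carriers in every mouse on ad libitum feeding, on a log axis, by genotype and age, with the group median as a bar. Slc25a37 separates the groups with and without muscle BMAL1 with little or no overlap, with medians of 2.74 FPKM in 10-week KO and 4.47 FPKM in 10-week WT mice.

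At 26 weeks 15 of the 33 carriers differed between KO and WT muscle, 10 higher and 5 lower, where 46.3% of all genes were called (24.4% higher and 22% lower). No carrier's groups were fully apart, which held for 1.16% of genes. Slc25a30 had 0.590, 0.860 and 1.71 FPKM in KO mice and 0.798, 1.63 and 4.07 FPKM in WT mice, a difference of -1.0 (SE 0.12, adjusted p = 1.75e-09). Slc25a37 had 1.27, 2.57 and 3.93 FPKM in KO mice and 3.69, 4.94 and 7.20 FPKM in WT mice, a difference of -0.97 (SE 0.10, adjusted p = 2e-11). The overlap in Slc25a37 was confined to the margin of the 2 ranges.

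Slc25a33 had 1.97, 3.02 and 46.0 FPKM in 26-week KO mice, against 3.13, 6.29 and 11.5 FPKM in WT mice. The difference was -0.90 (SE 0.21, adjusted p = 0.000378), and -1.10 without the libraries that stand apart. The value of 46.0 FPKM came from KO mouse 11 at ZT8, the library that stands farthest from its group. Slc25a36 rose by 0.58 (SE 0.09, adjusted p = 1.47e-06), with 4.98, 9.69 and 14.4 FPKM in KO mice and 3.04, 6.22 and 11.4 FPKM in WT mice. Slc25a34 rose by 0.87 (SE 0.20), Slc25a1 by 0.75 (SE 0.15), Slc25a17 by 0.43 (SE 0.08) and Slc25a10 by 0.37 (SE 0.12). Slc25a15 and Slc25a20 fell by 0.31 (SE 0.08) and 0.29 (SE 0.08). Of the 7 amino acid carriers Slc25a15 fell and 2 rose at this age, Slc25a38, which carries glycine, by 0.18 (SE 0.07) and Slc25a44, which carries branched-chain amino acids, by 0.16 (SE 0.06).

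Across the 33 carriers, the KO minus WT differences at 26 and at 10 weeks had a Pearson correlation of 0.88, against 0.72 across all 9862 genes. The 2 comparisons share no mice, but genes are not independent replicates and the correlation is a description. Of the carriers called, 11 were called at both ages, or 73.3% of those called at 26 weeks and 64.7% of those called at 10 weeks, and all 11 had the same sign. The effect of the knockout itself differed with age in 3 carriers (5 without the libraries that stand apart), where 18.8% of all genes were called, and 2 of the 3 are described here. Slc25a11 was 0.33 higher in KO muscle at 26 weeks and 0.12 higher at 10 weeks. Slc25a27 had a difference of -0.12 at 26 weeks, which did not pass the threshold on its own, and of 0.22 at 10 weeks.

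Markers of other cells moved with genotype at 10 weeks. The 3 macrophage markers past the minimum, of 5 listed, were all lower in KO muscle, with summed levels of the 5 of 2.12, 6.07 and 12.3 FPKM (lowest, median, highest) in KO mice and 7.66, 13.3 and 30.3 FPKM in WT mice. The 3 endothelial markers were all higher, with sums of 37.0, 57.6 and 69.9 FPKM in KO mice and 27.2, 42.7 and 56.7 FPKM in WT mice. None of the 5 red blood cell markers was called, with sums of 43.1, 159 and 357 FPKM in KO mice and 19.4, 120 and 223 FPKM in WT mice. Of the 3 slow-fibre genes tested, 1 was lower in KO muscle, and 2 of the 3 general muscle genes were higher. Sums of 6 fast-fibre genes were 30624, 34982 and 43671 FPKM in KO mice and 22247, 28879 and 33300 FPKM in WT mice. Those of 5 adipocyte markers were 37.3, 54.2 and 74.5 FPKM in KO mice and 31.3, 40.8 and 70.9 FPKM in WT mice. The part of these cells in the carrier differences was not tested. At 26 weeks the 3 endothelial markers were again higher, with sums of 25.6, 50.9 and 89.7 FPKM in KO mice and 11.4, 29.7 and 52.9 FPKM in WT mice. Of the 3 macrophage markers 2 were lower, with sums of 2.51, 5.71 and 10.5 FPKM in KO mice and 4.60, 10.1 and 15.8 FPKM in WT mice, and 1 of 3 fibroblast markers was lower. No red blood cell marker was called, 1 of the 3 slow-fibre genes was higher and 2 of the 3 general muscle genes were higher. Fast-fibre sums were 27657, 33430 and 59221 FPKM in KO mice and 27309, 33916 and 42306 FPKM in WT mice. Adipocyte sums were 36.3, 45.8 and 94.0 FPKM in KO mice and 25.2, 43.2 and 65.8 FPKM in WT mice. Their part at 26 weeks was not tested either. Slc25a37 is abundant in developing red blood cells, and their part in its level was not tested.

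Restoring BMAL1 in muscle fibres alone was then compared with the knockout. In 10-week Mu-RE muscle 18 of the 33 carriers differed from KO muscle, 8 higher and 10 lower, where 34.6% of all genes were called (17.4% higher and 17.2% lower). These values share the KO mice with the KO and WT comparison, so the opposite signs of the 2 comparisons are not separate evidence. Slc25a37 had 4.35, 5.65 and 6.79 FPKM in Mu-RE mice, against 2.07, 2.74 and 3.47 FPKM in KO mice, a difference of 1.05 (SE 0.06, adjusted p = 1.67e-20). Slc25a36 had 3.88, 5.99 and 7.02 FPKM in Mu-RE mice, against 7.05, 8.23 and 13.5 FPKM in KO mice, a difference of -0.55 (SE 0.06, adjusted p = 2.48e-10). The groups did not overlap in either of these 2 carriers, as in 1.07% of all genes.

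Slc25a30 had 1.17, 2.04 and 3.93 FPKM in Mu-RE mice, against 0.601, 1.09 and 1.59 FPKM in KO mice, a difference of 1.0 (SE 0.10, adjusted p = 7.17e-11). Slc25a33 had 3.12, 4.56 and 7.02 FPKM in Mu-RE mice, against 1.84, 2.66 and 4.55 FPKM in KO mice, a difference of 0.77 (SE 0.10, adjusted p = 1.06e-08). The groups overlapped in both. Slc25a34 was lower by a difference of -0.95 (SE 0.20, adjusted p = 0.0002) and Slc25a17 by -0.51 (SE 0.07, adjusted p = 1.77e-07). Slc25a25 and Slc25a22, among the most variable members, passed narrowly at 0.84 (SE 0.32, adjusted p = 0.0383) and -0.49 (SE 0.19, adjusted p = 0.0422). In the same comparison the 3 endothelial markers and the 3 general muscle genes were all lower and 2 of the 3 slow-fibre genes higher in Mu-RE muscle, with endothelial sums of 35.6, 46.0 and 62.3 FPKM in Mu-RE mice and 37.0, 57.6 and 69.9 FPKM in KO mice. No macrophage or red blood cell marker was called, and the part of the others was not tested.

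At 26 weeks 14 carriers differed between Mu-RE and KO muscle, 8 higher and 6 lower, where 33.9% of genes were called (17.3% higher and 16.6% lower). Slc25a30 had 1.51, 2.03 and 3.07 FPKM in Mu-RE mice, against 0.590, 0.860 and 1.71 FPKM in KO mice, a difference of 1.25 (SE 0.10, adjusted p = 1.39e-14). Slc25a37 differed by 1.0 (SE 0.10), Slc25a15 by 0.42 (SE 0.07) and Slc25a20 by 0.32 (SE 0.08). Slc25a34 differed by -0.87 (SE 0.21), Slc25a36 by -0.71 (SE 0.08) and Slc25a17 by -0.53 (SE 0.07). Slc25a33 differed by 0.51 (SE 0.20, adjusted p = 0.0404), and by 0.72 when the libraries that stand apart were left out. Its call was lost under log2(FPKM + 1), under a replicate block and in most runs with fewer mice. No endothelial, macrophage or red blood cell marker was called here, while 2 of the 3 slow-fibre genes were higher and 1 of the 3 general muscle genes lower in Mu-RE muscle.

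Muscle-restored mice were not at the wild-type level in every carrier. At 10 weeks 7 of 33 carriers differed between Mu-RE and WT muscle, where 26.5% of genes were called. Slc25a33 stayed lower in Mu-RE muscle, by a difference of -0.36 (SE 0.11, adjusted p = 0.0116), with 3.12, 4.56 and 7.02 FPKM in Mu-RE mice and 3.52, 5.56 and 12.8 FPKM in WT mice. Slc25a37 was above WT by 0.29 (SE 0.05, adjusted p = 4.1e-05), with 4.35, 5.65 and 6.79 FPKM in Mu-RE mice and 3.59, 4.47 and 6.40 FPKM in WT mice. Slc25a1 was above WT by 0.62 (SE 0.14) and Slc25a27 by 0.26 (SE 0.06). Slc25a5, Slc25a23 (an ATP-Mg/phosphate carrier) and Slc25a28 differed by -0.40 (SE 0.11), -0.25 (SE 0.06) and -0.19 (SE 0.05). All 3 macrophage markers were lower in Mu-RE muscle, with sums of 3.78, 6.96 and 13.5 FPKM in Mu-RE mice and 7.66, 13.3 and 30.3 FPKM in WT mice, and their part was not tested.

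At 26 weeks 5 carriers differed between Mu-RE and WT muscle, where 30.8% of genes were called. Slc25a33 was again lower, at -0.37 (SE 0.10, adjusted p = 0.00567), with 2.48, 4.38 and 7.17 FPKM in Mu-RE mice and 3.13, 6.29 and 11.5 FPKM in WT mice. Slc25a1 was higher by 0.54 (SE 0.14), Slc25a42 by 0.27 (SE 0.07), Slc25a11 by 0.21 (SE 0.05) and Slc25a51 by 0.15 (SE 0.04). Slc25a37 and Slc25a30 were not called against WT at this age. The 3 endothelial markers and 2 of the 3 slow-fibre genes were higher in Mu-RE muscle, and 2 of 3 macrophage and 3 of 5 red blood cell markers lower. Endothelial sums were 27.1, 40.2 and 62.6 FPKM in Mu-RE mice and 11.4, 29.7 and 52.9 FPKM in WT mice, and red blood cell sums 44.5, 129 and 405 FPKM in Mu-RE mice and 89.8, 191 and 475 FPKM in WT mice. The part of these cells was not tested.

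The effect of muscle BMAL1 was measured again, in other mice, by comparing RE-RE with Br-RE muscle, which differ in Hsa-Cre while both carry the brain restoration. At 10 weeks 15 of 33 carriers differed, 7 higher and 8 lower in RE-RE muscle, where 32.2% of genes were called (14.8% higher and 17.4% lower). Slc25a30 had 1.62, 2.84 and 6.01 FPKM in RE-RE mice, against 0.544, 1.16 and 1.67 FPKM in Br-RE mice, a difference of 1.42 (SE 0.11, adjusted p = 5.26e-15). Slc25a33 had 3.31, 5.78 and 14.4 FPKM in RE-RE mice, against 2.17, 3.0 and 3.84 FPKM in Br-RE mice, a difference of 0.95 (SE 0.08, adjusted p = 6.22e-14). Slc25a37 had 3.43, 5.96 and 6.85 FPKM in RE-RE mice, against 2.63, 3.03 and 3.54 FPKM in Br-RE mice, a difference of 0.90 (SE 0.06, adjusted p = 2.16e-17). In all 3 carriers the ranges met only at their edges.

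Slc25a36 had 2.75, 4.88 and 9.25 FPKM in 10-week RE-RE mice, against 6.78, 8.33 and 12.7 FPKM in Br-RE mice, a difference of -0.74 (SE 0.08, adjusted p = 1.85e-10). Slc25a20 differed by 0.50 (SE 0.07) and Slc25a15 by 0.31 (SE 0.05). Slc25a17 differed by -0.50 (SE 0.06). None of the macrophage, endothelial and red blood cell markers tested was called in this comparison, while 2 of the 3 slow-fibre genes were higher and 2 of the 3 general muscle genes lower in RE-RE muscle.

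At 26 weeks 14 carriers differed between RE-RE and Br-RE muscle, 6 higher and 8 lower, where 35.3% of genes were called (16.5% higher and 18.9% lower). Slc25a37 had 4.28, 5.28 and 7.32 FPKM in RE-RE mice, against 2.03, 2.65 and 3.31 FPKM in Br-RE mice. Every RE-RE mouse lay above every Br-RE mouse, as in 0.730% of all genes, and the difference was 1.01 (SE 0.06, adjusted p = 4.9e-18). Slc25a30 had 0.957, 2.17 and 6.20 FPKM in RE-RE mice, against 0.508, 0.932 and 1.35 FPKM in Br-RE mice, a difference of 1.24 (SE 0.12, adjusted p = 1.62e-11). Slc25a33, Slc25a20 and Slc25a27 differed by 0.70 (SE 0.12), 0.32 (SE 0.07) and 0.26 (SE 0.08). Slc25a34, Slc25a36 and Slc25a17 differed by -0.64 (SE 0.19), -0.58 (SE 0.08) and -0.33 (SE 0.08). No macrophage, endothelial or red blood cell marker was called at this age either, while 2 of the 3 slow-fibre genes and 1 of 3 fibroblast markers were higher in RE-RE muscle and 1 of the 3 general muscle genes was lower.

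Set side by side, the 4 comparisons that share no mice (KO with WT and RE-RE with Br-RE, at each age) called 5 carriers lower without muscle BMAL1 every time: Slc25a15, Slc25a20, Slc25a30, Slc25a33 and Slc25a37. They called 3 higher every time: Slc25a11, Slc25a17 and Slc25a36. These are 15.2% and 9.09% of the 33 carriers, where 7.04% and 5.92% of all genes were called so. Across the 33 carriers the KO minus WT and RE-RE minus Br-RE differences had a correlation of -0.86 at 26 weeks and -0.85 at 10 weeks, against -0.79 and -0.77 across all genes. At 10 weeks 11 carriers were called in both, 64.7% of those called between KO and WT and 73.3% of those called between RE-RE and Br-RE, and 10 of them had opposite signs. The exception was Slc25a5, with -0.32 (SE 0.11) for KO minus WT and -0.26 (SE 0.05) for RE-RE minus Br-RE.

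Whether the muscle effect depends on the brain clock was tested as the RE-RE minus Br-RE difference less the Mu-RE minus KO difference. No carrier was called at 10 weeks by limma, where 3 had an unadjusted p below 0.05 and 0.0203% of all genes were called. None was called at 26 weeks, where 1 had such a p and 0% of genes were called. A p above the threshold does not show that the 2 effects are alike.

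**Figure D3:**
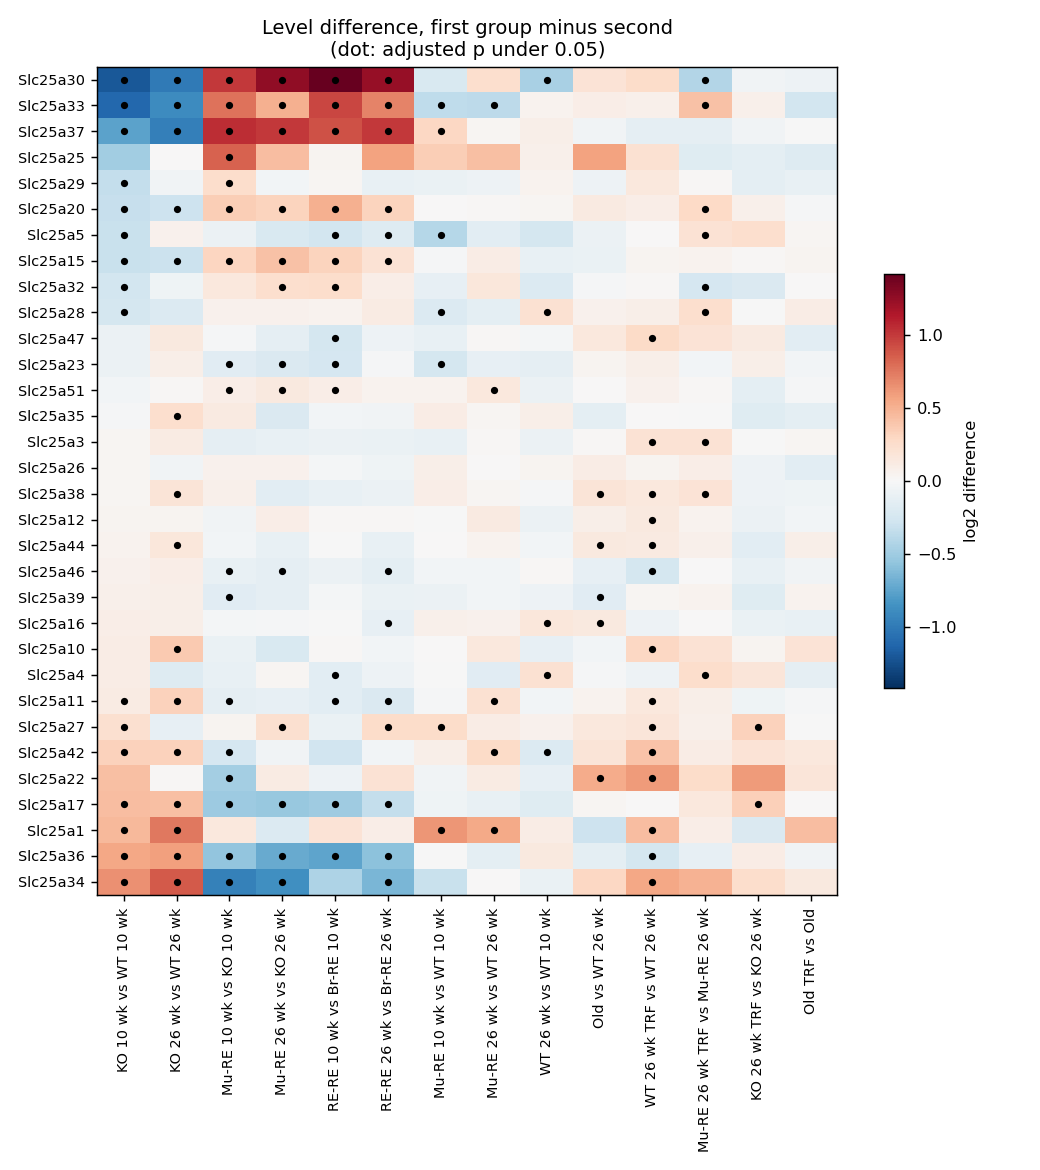
Difference in 24 h mean log2 FPKM of 32 tested carriers in each level comparison, first group minus second, coloured red above 0 and blue below, with a dot where the adjusted p was below 0.05. Slc25a30, Slc25a33 and Slc25a37 are blue for KO against WT and red for Mu-RE against KO and RE-RE against Br-RE, and Slc25a36 and Slc25a17 show the opposite colours.

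Neighbouring transport genes give a frame for these values. Of 17 tested genes for other inner-membrane transport, 7 rose and 2 fell in 10-week KO against WT muscle. Over all genes 20.3% rose and 21.6% fell there. Mcu, the pore of the calcium uniporter, differed by 0.50 (SE 0.04), and Mpc1, a subunit of the mitochondrial pyruvate carrier, by -0.56 (SE 0.06). In 10-week RE-RE against Br-RE muscle 2 of the 17 rose and 6 fell, where 14.8% of all genes rose and 17.4% fell. There Mcu differed by -0.26 (SE 0.05) and Mpc1 by 0.40 (SE 0.06). Of the 3 porins of the outer membrane, Vdac1 was called, with -0.40 (SE 0.06) for KO minus WT and 0.43 (SE 0.05) for RE-RE minus Br-RE.

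Of 11 tested shuttle and carnitine enzymes, 4 rose and 1 fell in 10-week KO muscle, where 20.3% of all genes rose and 21.6% fell. Cpt2, which re-forms acyl-CoA inside the membrane that Slc25a20 crosses, rose by 0.38 (SE 0.06) while Slc25a20 itself fell. Got1 and Mdh2, enzymes of the malate/aspartate shuttle served by Slc25a11 and Slc25a12, rose by 0.17 (SE 0.06) and 0.14 (SE 0.05). Of the 3 carrier-fold relatives tested, Mtch1, an outer-membrane protein, rose by 0.20 (SE 0.04). Slc25a20 and Cpt2, which act in 1 pathway, thus moved in opposite directions.

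Age was compared within wild-type mice. Between 26-week and 10-week WT muscle 6 carriers differed, where 37.0% of all genes were called. Slc25a30 was lower at 26 weeks by a difference of -0.46 (SE 0.13, adjusted p = 0.0047), with 0.798, 1.63 and 4.07 FPKM at 26 weeks and 1.28, 2.20 and 8.60 FPKM at 10 weeks. Slc25a4 was higher by 0.22 (SE 0.07, adjusted p = 0.017), with 1427, 1781 and 2901 FPKM at 26 weeks and 1142, 1527 and 2092 FPKM at 10 weeks. Slc25a28 and Slc25a16 differed by 0.22 (SE 0.06) and 0.16 (SE 0.05), and Slc25a42 by -0.20 (SE 0.07). Red blood cell markers were higher at 26 weeks in 5 of 5 and endothelial markers lower in 3 of 3, with sums of 89.8, 191 and 475 FPKM at 26 weeks and 19.4, 120 and 223 FPKM at 10 weeks for red blood cells. Their part in these differences was not tested.

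Between old and 26-week WT muscle 5 carriers differed, where 24.2% of genes were called. Slc25a22, which carries glutamate, had 1.76, 2.72 and 9.29 FPKM in old mice and 0.937, 2.15 and 4.13 FPKM at 26 weeks, a difference of 0.52 (SE 0.17, adjusted p = 0.0184). Slc25a38, Slc25a44 and Slc25a16 were higher in old mice by 0.18 (SE 0.05), 0.14 (SE 0.04) and 0.14 (SE 0.05). Slc25a39 was lower, at -0.17 (SE 0.06). The carriers called in all 4 comparisons of muscle with and without BMAL1 were not among these 5. Median Slc25a37, for example, was 4.77 FPKM in old and 4.94 FPKM in 26-week mice. A p above the threshold does not show that the levels are alike. All 3 fibroblast markers past the minimum were lower in old mice, with a median difference of -2.04, and the sums of the 4 listed were 15.6, 48.8 and 174 FPKM in old mice and 54.1, 102 and 181 FPKM at 26 weeks. Their part in the carrier differences was not tested.

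Most carriers that changed with restricted feeding in 26-week WT muscle rose. On TRF 14 of 33 carriers differed from ALF, 12 higher and 2 lower, where 41.0% of genes were called (20.9% higher and 20.1% lower). All 3 carboxylate carriers tested rose, as did 4 of the 7 amino acid carriers, and no member of either group fell. The median difference of the members was 0.09, against 0.01 over all genes. The largest was in Slc25a22, with 1.32, 2.92 and 9.29 FPKM on TRF and 0.937, 2.15 and 4.13 FPKM on ALF, a difference of 0.60 (SE 0.14, adjusted p = 0.0012). Slc25a34 rose by 0.55 (SE 0.18), Slc25a1 by 0.44 (SE 0.14), Slc25a42 by 0.40 (SE 0.07) and Slc25a10 by 0.30 (SE 0.11). Slc25a47, a carrier best known from liver, rose by 0.27 (SE 0.08). Slc25a36 and Slc25a46 fell by 0.25 (SE 0.09) and 0.25 (SE 0.06). All 3 endothelial markers were higher on TRF too, with sums of 22.1, 40.6 and 63.5 FPKM on TRF and 11.4, 29.7 and 52.9 FPKM on ALF, and their part was not tested.

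In Mu-RE mice 9 carriers differed with TRF, where 16.9% of genes were called. Slc25a33 had 3.83, 5.99 and 10.9 FPKM on TRF and 2.48, 4.38 and 7.17 FPKM on ALF, a difference of 0.42 (SE 0.10, adjusted p = 0.00593). Slc25a30 had 0.784, 1.54 and 2.59 FPKM on TRF and 1.51, 2.03 and 3.07 FPKM on ALF, a difference of -0.42 (SE 0.10, adjusted p = 0.0049). Slc25a20 rose by 0.28 (SE 0.07), Slc25a4 by 0.25 (SE 0.07), Slc25a28 by 0.24 (SE 0.07), Slc25a5 by 0.21 (SE 0.08) and Slc25a3 by 0.20 (SE 0.07). Slc25a32 fell by 0.23 (SE 0.08).

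In KO mice 2 carriers (4 without the libraries that stand apart) differed with TRF, where 14.2% of genes were called. Slc25a17 had 5.93, 9.91 and 15.9 FPKM on TRF and 5.0, 7.55 and 11.8 FPKM on ALF, a difference of 0.34 (SE 0.10, adjusted p = 0.0218). Slc25a27 had 4.20, 5.19 and 7.53 FPKM on TRF and 2.92, 4.21 and 5.73 FPKM on ALF, a difference of 0.33 (SE 0.07, adjusted p = 0.00369). Of the 3 endothelial markers 2 were lower on TRF, with sums of 16.4, 36.8 and 60.9 FPKM on TRF and 25.6, 50.9 and 89.7 FPKM on ALF, as were both nerve markers tested, while 1 of 3 fibroblast markers was higher, and their part was not tested. In old mice limma called 0 carriers, where 6 had an unadjusted p below 0.05 and 0.142% of all genes were called.

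The difference between the KO and WT feeding responses was itself past the threshold in 5 carriers (8 without the libraries that stand apart), where 27.5% of genes were called. Slc25a36 changed by 0.10 with TRF in KO muscle and by -0.25 in WT muscle, a difference of 0.35 (SE 0.13, adjusted p = 0.0363). Slc25a17 changed by 0.34 in KO muscle and by 0.00 in WT muscle. Slc25a44, Slc25a12 and Slc25a51 changed by -0.15, -0.08 and -0.13 in KO muscle, against 0.13, 0.14 and 0.06 in WT muscle. Between old and 26-week WT mice no carrier's feeding response differed by limma, where 10 had an unadjusted p below 0.05 and 2.10% of genes were called.

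Daily rhythms were fitted as a cosine of 24 h in each group. Amplitude is the height of the fitted curve above its mean on the log2 scale, and the peak is a zeitgeber time. Of the 33 carriers, 21 were called in at least 1 of the 15 groups and 12 in none. In single groups up to 37.8% of all genes were called. The share of all genes called in at least 1 group was not computed, so the 21 cannot be set against it. Among those called in none were 3 of the 4 most abundant, Slc25a4, Slc25a11 and Slc25a3, and also Slc25a37. Slc25a36 was called in 8 groups with peaks from ZT 21.3 to ZT 23.6, Slc25a30 in 7 groups from ZT 14.7 to ZT 18.2, and Slc25a22 in 6 groups from ZT 6.57 to ZT 9.74. These peaks fell late in the dark phase for Slc25a36, early to mid dark phase for Slc25a30 and in the light phase for Slc25a22.

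**Figure D4:**
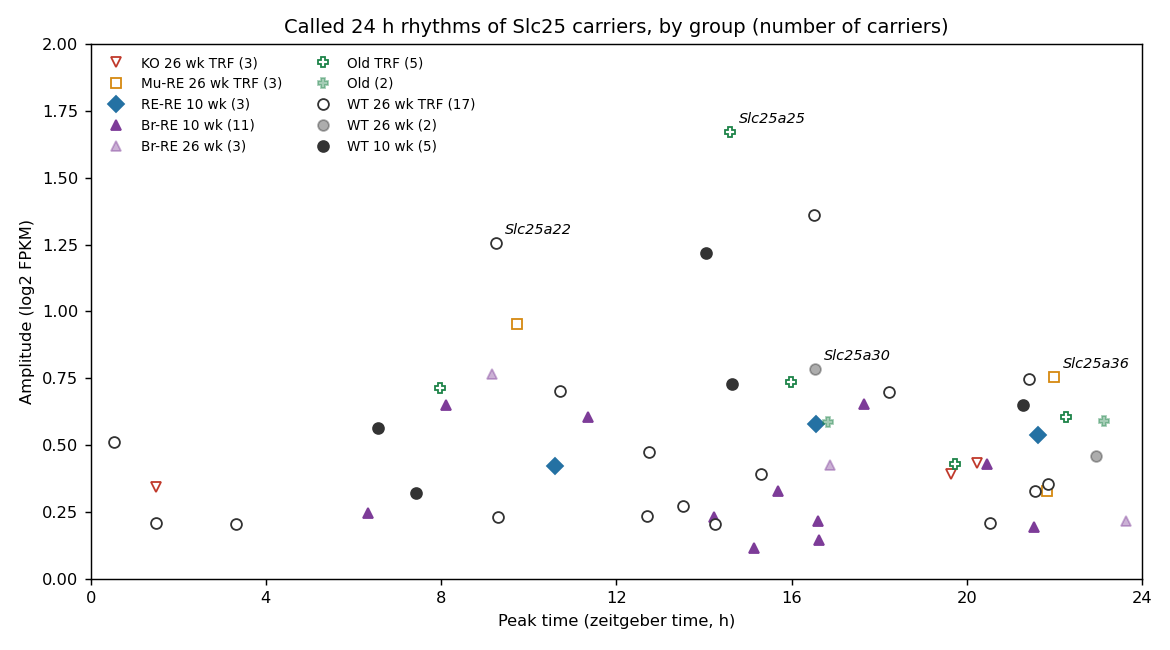
Peak time (ZT in h) and amplitude (log2) of each carrier rhythm with an adjusted p below 0.05, by group, with open symbols for TRF and filled ones for ALF. Slc25a36 gathers between ZT 21.3 and ZT 23.6 and Slc25a22 between ZT 6.57 and ZT 9.74, while the tallest points belong to Slc25a25.

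In 10-week WT muscle 5 carriers had a rhythm, where 5.84% of genes were called. The calcium-regulated Slc25a25 had the largest amplitude, 1.22 (SE 0.23) with a peak at ZT 14. Its geometric means at ZT0, 4, 8, 12, 16 and 20 were 2.74, 2.56, 2.84, 10.7, 11.8 and 2.74 FPKM. Slc25a30 had an amplitude of 0.73 (SE 0.12), Slc25a36 of 0.65 (SE 0.08) with a peak at ZT 21.3, Slc25a22 of 0.56 (SE 0.11) with a peak at ZT 6.57, and Slc25a42 of 0.32 (SE 0.07) with a peak at ZT 7.43. In 26-week WT muscle 2 carriers were called, where 1.04% of genes were. They were Slc25a30 with an amplitude of 0.79 (SE 0.12) and a peak at ZT 16.5, and Slc25a36 with 0.46 (SE 0.08) and a peak at ZT 22.9.

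No carrier was called rhythmic by limma in KO muscle on ALF. At 10 weeks 2 carriers had an unadjusted p below 0.05 and 0.0710% of genes were called, and at 26 weeks 2 had such a p and 0% of genes were called. The same was found in Mu-RE muscle on ALF, with 1 carrier at an unadjusted p below 0.05 at 10 weeks (0.0710% of genes called) and 4 at 26 weeks (0% of genes called).

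A rhythm called in one group and not in another is not yet a difference, so the difference between the fitted curves was tested as a vector length. Between KO and WT at 10 weeks 2 carriers were called, where 0.517% of genes were. Slc25a36 had geometric means at ZT0, 4, 8, 12, 16 and 20 of 8.90, 9.85, 7.19, 8.38, 8.68 and 7.93 FPKM in KO mice, against 7.57, 6.01, 3.79, 3.57, 7.77 and 8.09 FPKM in WT mice. The KO course stayed between 7.19 and 9.85 FPKM, and the 2 genotypes came closest at ZT16 and ZT20. The vector difference was 0.62 (SE 0.10, adjusted p = 0.00166).

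Slc25a30 had geometric means at the same times of 1.29, 0.976, 1.17, 0.991, 1.08 and 0.926 FPKM in 10-week KO mice, against 1.57, 1.75, 1.78, 4.52, 3.58 and 2.66 FPKM in WT mice. The WT rise at ZT12 and ZT16 had no counterpart in KO mice, and the vector difference was 0.81 (SE 0.17, adjusted p = 0.0309). At 26 weeks Slc25a30 was the 1 carrier called, where 0.172% of genes were, with a vector difference of 0.81 (SE 0.17, adjusted p = 0.0432). Its geometric means were 0.785, 0.863, 1.13, 0.789, 0.984 and 0.827 FPKM in 26-week KO mice, against 1.34, 1.13, 1.27, 2.02, 3.31 and 2.46 FPKM in WT mice. Slc25a36 thus lay near the WT peak all day without BMAL1, and Slc25a30 near or below the WT trough. Leaving out 1 mouse per time and group ended the call for Slc25a36 in 1 of 4 runs, and for Slc25a30 in 3 of 4 runs at 10 weeks and in all 4 at 26 weeks, with Slc25a30 vector differences from 0.68 to 1.04.

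**Figure D5:**
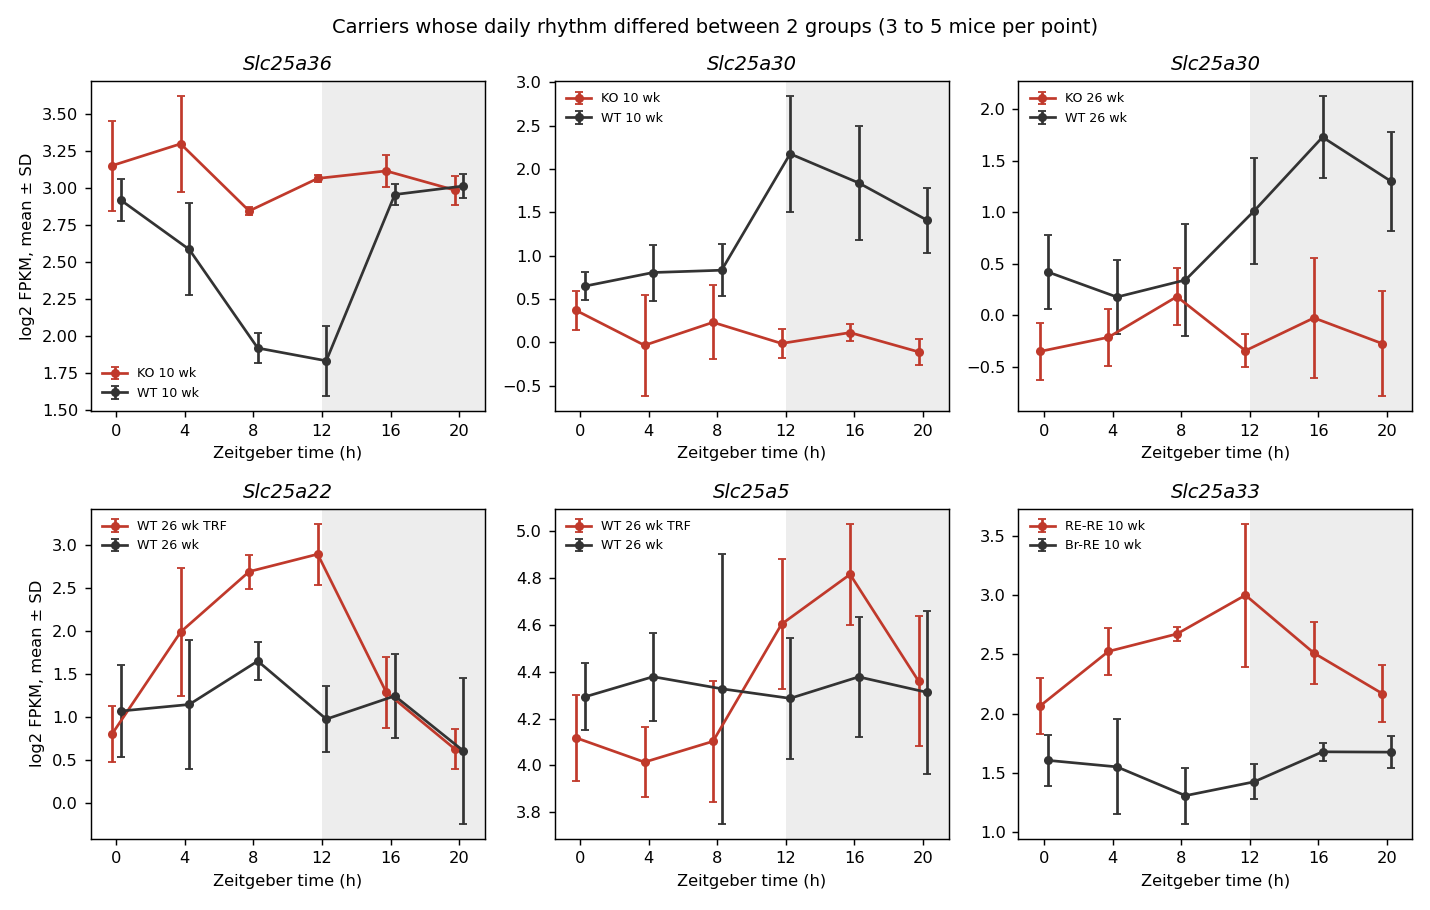
Mean and SD of log2 FPKM at each zeitgeber time for the carriers whose daily course differed between groups, with the dark phase from ZT12 in grey. KO Slc25a36 stays near the WT peak and KO Slc25a30 at or below the WT trough, while TRF raises the day peak of Slc25a22 in WT mice.

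With the brain clock alone, in 10-week Br-RE muscle, 11 carriers had a rhythm, where 29.0% of genes were called. Slc25a29 had an amplitude of 0.65 (SE 0.11) with a peak at ZT 17.7, Slc25a22 of 0.65 (SE 0.14) at ZT 8.12, Slc25a34 of 0.61 (SE 0.14) at ZT 11.4 and Slc25a47 of 0.43 (SE 0.11) at ZT 20.5. Slc25a30, Slc25a17, Slc25a12 and Slc25a44 followed with 0.33 (SE 0.10), 0.25 (SE 0.06), 0.23 (SE 0.06) and 0.22 (SE 0.05). At 26 weeks 3 carriers were called in Br-RE muscle, where 0.690% of genes were: Slc25a22 with an amplitude of 0.77 (SE 0.12), Slc25a29 with 0.43 (SE 0.08) and Slc25a36 with 0.22 (SE 0.04). The difference between Br-RE and KO courses passed in no carrier by limma. At 10 weeks 5 carriers had an unadjusted p below 0.05 (0.913% of genes called), and at 26 weeks 7 had one (0% of genes called).

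With both clocks, in 10-week RE-RE muscle, 3 carriers had a rhythm, where 0.588% of genes were called. They were Slc25a30 with an amplitude of 0.58 (SE 0.10) at ZT 16.6, Slc25a36 with 0.54 (SE 0.08) at ZT 21.6 and Slc25a33 with 0.42 (SE 0.09) at ZT 10.6. Slc25a33 was the 1 carrier whose course differed between RE-RE and Br-RE muscle at 10 weeks, where 0.152% of genes did, with a vector difference of 0.57 (SE 0.11, adjusted p = 0.0222), a call that each of the 4 runs with fewer mice lost. Its geometric means at ZT0, 4, 8, 12, 16 and 20 were 4.18, 5.76, 6.38, 8.00, 5.70 and 4.49 FPKM in RE-RE mice, against 3.04, 2.93, 2.47, 2.68, 3.20 and 3.19 FPKM in Br-RE mice. The RE-RE course was highest at ZT12. The Br-RE course stayed between 2.47 and 3.20 FPKM, and no rhythm of Slc25a33 was called in it. At 26 weeks RE-RE muscle had 0 called carriers by limma, with 4 at an unadjusted p below 0.05 and 0.760% of genes called. There the RE-RE and Br-RE courses differed in 0 carriers by limma, with 1 at an unadjusted p below 0.05 and 0.0913% of genes called.

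Restricted feeding gave WT muscle the most rhythmic carriers of any group, 17 of 33, where 37.8% of genes were called. Slc25a25 had an amplitude of 1.36 (SE 0.14) at ZT 16.5, Slc25a22 of 1.25 (SE 0.10) at ZT 9.24, Slc25a36 of 0.75 (SE 0.08) at ZT 21.4 and Slc25a34 of 0.70 (SE 0.13) at ZT 10.7. Slc25a30, Slc25a1, Slc25a33 and Slc25a5 followed with amplitudes of 0.70 (SE 0.10), 0.51 (SE 0.14), 0.47 (SE 0.10) and 0.39 (SE 0.06). The peaks of the 17 were spread over the whole day.

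Between TRF and ALF in WT mice the daily course differed in 2 carriers, where 3.92% of genes did. Slc25a22 had geometric means at ZT0, 4, 8, 12, 16 and 20 of 1.75, 3.97, 6.46, 7.43, 2.44 and 1.55 FPKM on TRF, against 2.10, 2.21, 3.14, 1.97, 2.37 and 1.52 FPKM on ALF. The gap lay between ZT4 and ZT12, and the vector difference was 0.96 (SE 0.21, adjusted p = 0.0208), a call lost in 2 of the 4 runs with fewer mice and under a replicate block. Slc25a5 had 17.4, 16.2, 17.2, 24.3, 28.2 and 20.5 FPKM on TRF, against 19.6, 20.8, 20.1, 19.5, 20.8 and 19.9 FPKM on ALF. It was flat on ALF and rose at ZT12 and ZT16 on TRF, with a vector difference of 0.40 (SE 0.10, adjusted p = 0.0431) that did not pass in any of the 4 runs with fewer mice.

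In the other TRF groups fewer carriers were called. Mu-RE muscle had 3, where 6.97% of genes were called: Slc25a22 with an amplitude of 0.95 (SE 0.14), Slc25a36 with 0.75 (SE 0.07) and Slc25a47 with 0.33 (SE 0.07). Slc25a36 had geometric means at ZT0, 4, 8, 12, 16 and 20 of 8.77, 4.95, 3.88, 3.01, 5.64 and 8.44 FPKM in Mu-RE mice on TRF, against 6.37, 5.86, 5.19, 6.23, 6.26 and 5.57 FPKM on ALF, where its amplitude was 0.04 (SE 0.06). The difference between these 2 courses was not tested. KO muscle on TRF had 3, where 6.20% of genes were called: Slc25a47 with 0.43 (SE 0.11), Slc25a33 with 0.39 (SE 0.10) and Slc25a39 with 0.34 (SE 0.08). The KO peak of Slc25a33, at ZT 19.6, stands apart from its peaks at ZT 12.7 in WT muscle on TRF and ZT 10.6 in 10-week RE-RE muscle, and these phase differences were not tested.

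In old mice 5 carriers had a rhythm on TRF and 2 on ALF. On TRF, where 5.71% of genes were called, they were Slc25a25 with 1.67 (SE 0.19) at ZT 14.6, Slc25a30 with 0.74 (SE 0.12) at ZT 16.0, Slc25a22 with 0.71 (SE 0.15) at ZT 7.97, Slc25a36 with 0.61 (SE 0.07) at ZT 22.3 and Slc25a29 with 0.43 (SE 0.10) at ZT 19.7. Slc25a25 had geometric means of 2.76, 1.54, 5.58, 16.6, 13.5 and 7.94 FPKM at ZT0, 4, 8, 12, 16 and 20 in these mice, the tallest daily course of the family. On ALF, where 1.41% of genes were called, they were Slc25a36 with 0.59 (SE 0.05) at ZT 23.1 and Slc25a30 with 0.59 (SE 0.08) at ZT 16.8. The gene spans of Slc25a25 and of Naif1, on the other strand, overlap by 989 bases, so reads from that stretch could belong to either gene.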

How the data were processed

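Whole tibialis anterior RNA was sequenced in paired 150 bp reads, per the labels' protocols; of 360 samples 8 were excluded by the authors. Per the submitters' processing notes, the tools were HISAT2 2.1.0 and featureCounts 1.6.2 on GRCm38, the R packages limma 3.44.1 and edgeR 3.30.0, and for the reads Trim Galore 0.5.0 and FastQC 0.11.8. The deposited values are log2 FPKM per gene from the authors, with 0.01 FPKM added before the log, as inferred from the values. A centring that no label records was found in them: female and male gene means agreed within 1e-05 in each of 3 sets of 259, 47 and 46 libraries, and the Br-RE and RE-RE means equalled those of the other libraries of their age. Depth was inferred from whole-read steps of low values, of which a median of 94.3% per library lay within 0.1 read of a whole number.

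Here, limma 3.58.1 in R 4.3.3 (trend and robust) fitted level, 24 h cosine and sine per group, and sex. Genes with a mean log2 FPKM of at least 0 were tested, p-values were adjusted by Benjamini-Hochberg over 9862 genes, and calls were made under 0.05. The fits were tested on simulated data. Replicates are separate mice. The members and lists were chosen with earlier results of these data known. Named were the 5 most abundant members, the called members of largest difference or amplitude (up to 20 for KO with WT at 10 weeks and 8 elsewhere) and called interactions; Slc25a33 medians, Slc25a4 values, members below the minimum and single comparison genes were added; 1 member is counted but not reported here or drawn. Alternatives were another pseudocount, no minimum, library centring, an exon length slope, 1 fit of all groups, a replicate block, and leaving out mice. Promoters came from RefSeq (GRCm38.p6); figures were drawn by matplotlib 3.10.9 in Python 3.11.15, on tables made through numpy 2.4.6 and pandas 2.3.3.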

Additional observations from a re-analysis of the deposited data

Results flagged for a closer look

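The knockout effect on level differed between 26 and 10 weeks, by a test of the difference, in 3 carriers, of which 2 are given. It did so in 18.8% of all genes. On the log2 scale the 26-week effect less the 10-week effect was 0.21 for Slc25a11 and -0.34 for Slc25a27.

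The feeding response at 26 weeks differed between KO and WT muscle in 5 carriers, where 27.5% of all genes were called. The KO response less the WT response was 0.35 for Slc25a36, 0.33 for Slc25a17, -0.28 for Slc25a44, -0.22 for Slc25a12 and -0.19 for Slc25a51.

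The daily course differed between groups in 5 carriers, in 6 comparisons by gene. Of all genes, 0.517% were called for KO against WT at 10 weeks and 0.172% at 26 weeks. The share was 0.152% for RE-RE against Br-RE at 10 weeks and 3.92% for TRF against ALF in WT. Between KO and WT muscle the vector difference on the log2 scale was 0.81 for Slc25a30 and 0.62 for Slc25a36 at 10 weeks, and 0.81 for Slc25a30 at 26 weeks. Between RE-RE and Br-RE muscle at 10 weeks it was 0.57 for Slc25a33. Between TRF and ALF in WT muscle it was 0.96 for Slc25a22 and 0.40 for Slc25a5. Groups of 22 to 25 mice were too large for the single-sample outlier test used on smaller groups.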

How the results depend on the processing

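Under log2(FPKM + 1) and library centring, every count of called carriers stayed within 1.5 times its main value. No called level difference or interaction of a named carrier reversed its sign under any alternative run. Amplitudes and vector differences have no sign, so they could not reverse, and shifts of their peaks were not counted. Of all repeats, rhythms included, 1770 kept their call and 405 lost it. Slc25a37 kept every one of its calls. Slc25a33 in 26-week Mu-RE against KO muscle lost its call under log2(FPKM + 1) at 0.37, under the block at 0.48 and without replicates 1, 2 and 4.

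With an exon length slope as covariate, carriers called changed to 3 for Mu-RE against WT at 26 weeks (5 in the report), 2 for WT 26 against 10 weeks (6), 3 for Mu-RE TRF against ALF (9), 7 for the age dependence of the knockout effect (3) and 1 for the feeding response of old against 26-week WT (0). Rhythms changed to 3 in Br-RE at 10 weeks (11), 1 in RE-RE at 26 weeks (0), 7 in KO on TRF (3) and 9 in old mice on TRF (5). With all groups in 1 fit, 7 carriers were called for KO TRF against ALF (2), 5 for the age dependence of the knockout effect and 9 for the feeding response of KO against WT (5). Rhythms were then 7 in Br-RE at 10 weeks, 0 in Br-RE at 26 weeks (3), 2 in RE-RE at 26 weeks and 16 in KO on TRF, and 1 course differed between TRF and ALF in WT (2). With no minimum, 0 rhythms were called in KO on TRF, 0 courses differed between KO and WT at 26 weeks (1) and 1 between TRF and ALF in WT. Without WT replicate 1 at 10 weeks, 1 course differed between KO and WT (2). Without the 6 libraries that stand apart, chosen after seeing the data, 4 carriers were called for KO TRF against ALF, 5 for the age dependence of the knockout effect, 8 for the feeding response of KO against WT and 3 for that of old against 26-week WT, and 2 courses differed between RE-RE and Br-RE at 10 weeks (1). The cause of these changes was not tested.

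Animal numbers are tied to sampling times, and same-numbered mice did not all deviate together: for KO and WT the median correlation was 0.118 over 22 pairs at 10 weeks, with 11 over 0.1, and 0.0336 over 21 pairs at 26 weeks, with 8 over 0.1. At 10 weeks it was 0.130 over 23 pairs of Mu-RE and KO mice, with 15 over 0.1, and -0.0169 over 23 pairs of RE-RE and Br-RE mice, with 3 over 0.1. In none of these 4 comparisons was every pair over 0.1, and the main fits did not pair the mice. A rule that asks this of every pair cannot exclude shared deviation, so a replicate block was also fitted. With a replicate block, level and interaction counts stayed within 1.5 times (19 for KO against WT at 10 weeks). The courses called were 1 for KO against WT at 10 weeks, 0 at 26 weeks, 0 for RE-RE against Br-RE at 10 weeks and 0 for TRF against ALF in WT.

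Leaving out 1 mouse per time point in every group gave ranges over the 4 runs. Level counts ran from 0 to 2 for KO TRF against ALF, 9 to 14 for Mu-RE against KO at 26 weeks (14), 1 to 7 for Mu-RE TRF against ALF, 1 to 3 for old against 26-week WT (5), 9 to 11 for RE-RE against Br-RE at 26 weeks (14), 3 to 6 for WT 26 against 10 weeks and 6 to 10 for WT TRF against ALF (14). Counts of interactions ran from 1 to 2 for the age dependence of the knockout effect, 0 to 4 for the feeding response of KO against WT and 0 to 2 for that of old against 26-week WT. Rhythm counts ran from 2 to 11 in Br-RE at 10 weeks, 0 to 1 in Br-RE at 26 weeks, 0 to 1 in KO on TRF, 3 to 4 in old mice on TRF, 0 to 1 in RE-RE at 10 weeks (3), 1 to 4 in WT at 10 weeks (5) and 0 to 2 in WT at 26 weeks (2). Differing courses ran from 0 to 2 for KO against WT at 10 weeks, 0 to 0 at 26 weeks, 0 to 1 for RE-RE against Br-RE at 10 weeks and 0 to 1 for TRF against ALF in WT. Rhythm calls are thus the less stable kind in these data, and fewer mice were used in each of these runs. Low carriers such as Slc25a1 and Slc25a10, near 1 FPKM, and variable ones such as Slc25a25 carry the least precise values.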
